A study of Mus musculus with 12 samples.

Results

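The tripartite motif (Trim) genes code for a large family of proteins that share B-box zinc fingers and a coiled coil, in most members after an N-terminal RING finger. The members studied here were all rows of the gene count matrix whose symbol was Trim followed by a number and at most 1 letter, with a mean over the 12 libraries of at least 1 CPM (the count divided by the library total and scaled to a library of 1 M counts). Of the 20778 rows of the matrix, 66 had such a symbol, and 39 of these met the CPM rule. Trim17 lay just inside the rule at 1.14 CPM and Trim9 just outside it at 0.915 CPM. Among the 27 rows below the rule, 5 had no count in any library, Trim38 being one of them.

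To compare the expression profile induced in T cells by distinct stimuli, the study isolated CD8 T cells from spleens of C57BL/6 mice on magnetic beads and cultured them for 6 hours. The mice carried no labelled genetic change and were 6 weeks old by the labels, although older mice are given in the methods of the study. Cells were left untreated (Naïve), or received an antibody to the T cell receptor component CD3 (αCD3, 1 µg/ml), interferon gamma (IFNγ, 70 ng/ml) or bacterial lipopolysaccharide (LPS, 1 µg/ml), and 1 label field gives the αCD3 and LPS doses in mg instead, so that their unit is uncertain. There were 3 mRNA libraries per group. The study says in general terms that its experiments were repeated, but the labels and methods do not say whether these libraries came from separate animals or cultures, so that p-values measure only the spread between these libraries, which may be technical.

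Most Trim proteins are ubiquitin ligases, in which the RING finger recruits a ubiquitin-conjugating (E2) enzyme and the C-terminal domain, most often a SPRY domain, picks the target. Many of them act in innate immunity. Some bind viral capsids or antibody-coated virus directly, others modify the sensors and adaptors that switch on type I interferon, and a number of their genes are themselves interferon targets. A separate subfamily, with a PHD finger and a bromodomain, represses transcription in chromatin.

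Total counts lay between 10.2 M and 27.6 M per library. Replicate 1 stood apart in every group, since the chi-square per degree of freedom between libraries of a group was 20 to 51.7 for pairs with replicate 1 and 4.48 to 5.66 for replicates 2 and 3. The CD8 markers Cd8a (188 to 504 CPM) and Cd8b1 (284 to 414 CPM) were present in every library. So were the B cell markers Cd79a (234 to 958 CPM) and Ms4a1 (373 to 602 CPM). A list of 10 B cell markers summed to 3433 to 3755 CPM in Naïve, 2389 to 2782 in αCD3, 2735 to 2872 in IFNγ and 1966 to 2968 in LPS, and a list of 10 T cell markers to 1607 to 1825, 2418 to 2605, 1639 to 1792 and 1285 to 1471 CPM in the same order. A list of 10 myeloid markers summed to 693 to 1281 CPM in Naïve, 601 to 1050 in αCD3, 1083 to 1785 in IFNγ and 746 to 1272 in LPS, and was lowest in replicate 1 of each group. An erythroid list was also lowest in replicate 1 of each group, at 137 to 769 CPM in Naïve, 164 to 709 in αCD3, 227 to 1724 in IFNγ and 197 to 1193 in LPS. A list of 5 NK cell markers summed to 74 to 86, 144 to 182, 95 to 166 and 70 to 121 CPM in the same order. The part of these cells in the results was not tested, and in bulk RNA a change in the number of expressing cells cannot be told apart from a change of the RNA per cell.

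Levels are given in CPM on TMM-scaled library sizes, with SD where a mean is given, and every other value with ± is a log2 fold change with its standard error (SE). All 39 members passed the filter on low counts and were tested with the quasi-likelihood F-test of edgeR, with Benjamini-Hochberg adjustment over 12122 genes, and a call is an adjusted p below 0.05. In the fold change map of the 39 genes, 1 block of members lies above 0 in all 3 columns, and decreases are scattered. Against Naïve, IFNγ raised 12 members and lowered 2, beside 8.17% and 4.27% of all tested genes. The count of 2 lowered members went to 0 without Naïve replicate 1 or IFNγ replicate 2, and to 4 on library size alone, 5 with the replicate number as a block and 8 without replicate 1 of all groups. For αCD3, 12 members were higher and 5 lower, beside 22.9% and 15.7% of all genes. The count of 5 lowered members went to 1 without αCD3 replicate 2 or 3 and to 2 without Naïve replicate 1. It went to 11 with the replicate block and to 10 without replicate 1 of all groups. LPS raised 14 and lowered 8, beside 26.9% and 22.3%. The share of members that rose was thus 30.8% under IFNγ, well above its background, 30.8% under αCD3 and 35.9% under LPS, both nearer to theirs. Median log2 fold changes of the 39 members were -0.05, 0.01 and -0.08 for IFNγ, αCD3 and LPS, and those of all genes were -0.02, -0.02 and -0.01. Any difference among the 4 groups was called for 28 members (71.8%), beside 59.9% of all genes.

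**Figure D1:**
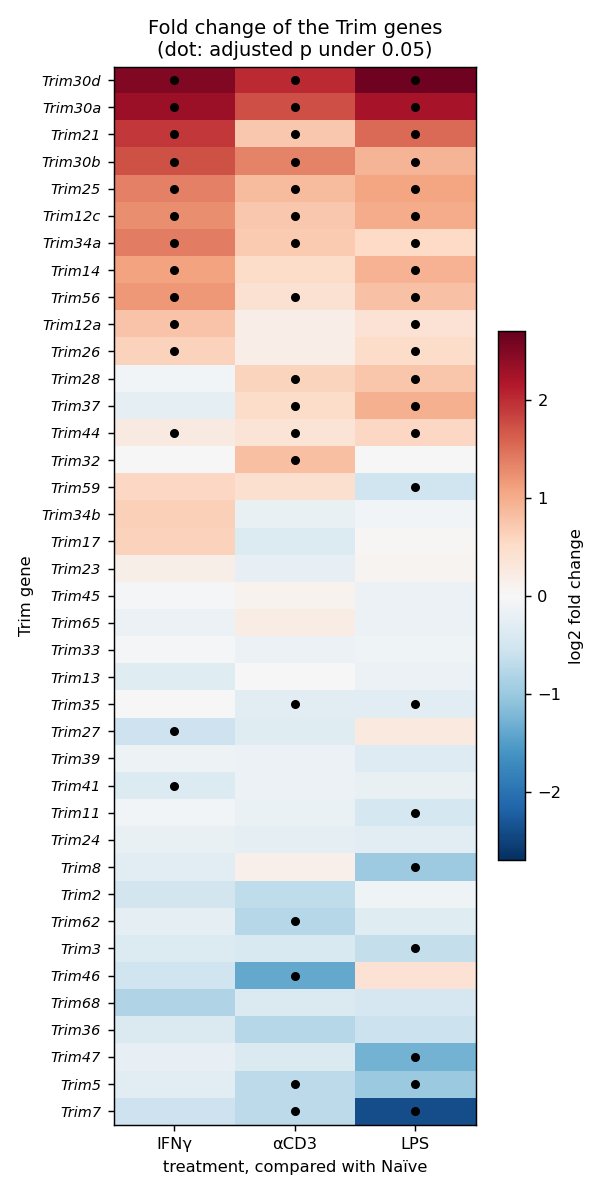
Log2 fold change of each of the 39 Trim genes (rows) against Naïve under IFNγ, αCD3 and LPS (columns), as colour from blue (lower) to red (higher). A dot marks an adjusted p under 0.05. Trim30d and Trim30a stand at the top in all 3 columns and Trim7 at the bottom under LPS (log2 fold change -2.39).

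The summed level of the 39 members was 2444 to 2485 CPM in Naïve, 2878 to 4372 in αCD3, 3934 to 5417 in IFNγ and 4300 to 4523 in LPS, and no treated library overlapped with Naïve. Trim30a alone went from a mean of 233 ± 42.6 CPM (SD, n = 3) in Naïve to 1150 ± 422 in IFNγ. Per kb of annotated exon sequence, Trim30a had the highest mean over the 12 libraries (197 CPM per kb), followed by Trim28 (80.2), Trim30d (63.6), Trim12c (59.6), Trim34a (57.9) and Trim25 (52.8). In Naïve alone, Trim28 (62.2) stood above Trim30a (56.8). There Trim30d (15.1) lay below Trim34a (34.5), Trim12c (33.9) and Trim25 (28.2).

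Next, the members linked to interferon were examined. On the chromosome, 8 of the 39 members lie side by side within 263 kb of chromosome 7 (chr7:104244457-104507849, GRCm38), in the order Trim34a, Trim5, Trim12a, Trim34b, Trim12c, Trim30b, Trim30a and Trim30d, and Trim21 lies on the same chromosome. The promoters are shown because their letters bear on which of these neighbours hold an interferon element and which do not. RefSeq (GRCm38.p6) gave a promoter, from 250 bases before to 50 after the start of a gene, for 30 of the 39 members, all but Trim3, Trim8, Trim11, Trim14, Trim17, Trim33, Trim35, Trim36 and Trim65. The core of the interferon-stimulated response element (ISRE) was searched as GAAANNGAA on both strands, where N is any base, and is in capitals below.
Trim30a, chr7:104465144-104465443, minus strand: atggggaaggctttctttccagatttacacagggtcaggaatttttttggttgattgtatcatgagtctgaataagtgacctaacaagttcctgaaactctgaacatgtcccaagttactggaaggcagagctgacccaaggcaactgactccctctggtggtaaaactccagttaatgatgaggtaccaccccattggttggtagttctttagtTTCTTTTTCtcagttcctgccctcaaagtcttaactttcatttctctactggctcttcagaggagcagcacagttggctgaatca
Trim30d, chr7:104507800-104508099, minus strand: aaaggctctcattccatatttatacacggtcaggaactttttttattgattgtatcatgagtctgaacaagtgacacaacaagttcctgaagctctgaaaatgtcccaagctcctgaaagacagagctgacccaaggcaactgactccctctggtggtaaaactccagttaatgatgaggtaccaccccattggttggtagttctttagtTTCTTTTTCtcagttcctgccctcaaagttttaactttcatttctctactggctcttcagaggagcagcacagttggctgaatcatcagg
Trim34a, chr7:104244207-104244506, plus strand: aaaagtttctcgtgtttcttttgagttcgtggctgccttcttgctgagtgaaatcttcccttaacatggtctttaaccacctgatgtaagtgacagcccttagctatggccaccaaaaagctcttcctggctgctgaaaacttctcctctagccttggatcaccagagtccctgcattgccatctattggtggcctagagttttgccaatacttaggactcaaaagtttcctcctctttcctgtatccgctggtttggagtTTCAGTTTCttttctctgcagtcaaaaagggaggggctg
Trim5, chr7:104288057-104288356, minus strand: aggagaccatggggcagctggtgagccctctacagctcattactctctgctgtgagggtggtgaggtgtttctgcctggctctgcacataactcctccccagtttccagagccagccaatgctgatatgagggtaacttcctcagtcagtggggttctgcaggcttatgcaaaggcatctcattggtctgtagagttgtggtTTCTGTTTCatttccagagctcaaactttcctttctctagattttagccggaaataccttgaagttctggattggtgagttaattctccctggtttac
Trim12a, chr7:104315446-104315745, minus strand: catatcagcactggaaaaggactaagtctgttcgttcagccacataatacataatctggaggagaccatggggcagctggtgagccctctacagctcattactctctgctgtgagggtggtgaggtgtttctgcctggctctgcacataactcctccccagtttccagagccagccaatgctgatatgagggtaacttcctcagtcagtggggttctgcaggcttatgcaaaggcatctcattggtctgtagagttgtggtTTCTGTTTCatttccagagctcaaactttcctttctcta
Trim12c, chr7:104353300-104353599, minus strand: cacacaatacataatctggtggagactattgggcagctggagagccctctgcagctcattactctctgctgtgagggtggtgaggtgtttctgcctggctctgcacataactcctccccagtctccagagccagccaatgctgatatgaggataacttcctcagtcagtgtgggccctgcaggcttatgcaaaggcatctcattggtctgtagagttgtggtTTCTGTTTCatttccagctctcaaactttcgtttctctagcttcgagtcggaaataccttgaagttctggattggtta
Trim21, chr7:102565433-102565732, minus strand: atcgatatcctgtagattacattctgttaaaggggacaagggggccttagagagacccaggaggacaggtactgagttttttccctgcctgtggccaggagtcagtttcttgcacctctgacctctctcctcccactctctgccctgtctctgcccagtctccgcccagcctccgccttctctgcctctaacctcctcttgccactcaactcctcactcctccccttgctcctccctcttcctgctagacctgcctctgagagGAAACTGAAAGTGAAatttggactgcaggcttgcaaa
Trim25, chr11:88999153-88999452, plus strand: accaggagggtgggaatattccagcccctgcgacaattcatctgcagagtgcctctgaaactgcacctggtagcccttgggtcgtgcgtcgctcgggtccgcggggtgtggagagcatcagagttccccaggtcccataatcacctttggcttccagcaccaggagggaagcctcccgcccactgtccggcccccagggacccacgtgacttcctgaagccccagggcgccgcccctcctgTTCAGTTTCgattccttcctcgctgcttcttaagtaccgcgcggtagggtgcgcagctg
Trim56, chr5:137116158-137116457, minus strand: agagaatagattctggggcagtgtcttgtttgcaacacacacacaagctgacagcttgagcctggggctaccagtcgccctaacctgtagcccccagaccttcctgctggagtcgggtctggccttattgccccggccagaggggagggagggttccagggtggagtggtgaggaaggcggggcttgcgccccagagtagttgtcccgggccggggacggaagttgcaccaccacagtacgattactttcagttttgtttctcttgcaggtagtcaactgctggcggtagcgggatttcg
The letters of Trim30a and Trim30d matched at 276 of 295 aligned bases (93.6%), and both hold the element as TTCTTTTTC, with its first base at -35 and -40 from the start of the gene (negative numbers lie before it). Trim5 and Trim12a shared a run of 241 identical bases, and both they and Trim12c hold TTCTGTTTC, at -48, 12 and -28. In Trim21 a pair of overlapping matches begins at 14 and 20, in Trim34a the match begins at 12, and in Trim25 at -9. The windows of Trim56 and Trim30b hold no match, which says only that these letters are not in them. Some members have several promoters, and 13 of their 42 windows hold the element, beside 8.56% of all 32851 promoters. Counted by gene, 12 of the 30 members hold it in at least 1 window, beside 9.76% of 27025 genes, and Trim26, Trim34b, Trim7 and Trim2 are the others. Of these 12, Trim5, Trim34b, Trim7 and Trim2 were not called above Naïve under any stimulus. The NF-κB letters GGANTTTCC were found in none of the 42 windows, beside 1.25% of all promoters. The search describes sequence, not binding.

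Among the 39 members, the strongest increases were in Trim30a and Trim30d, under every stimulus. Trim30a, known for dampening Toll-like receptor signalling to NF-κB, was at 186, 267 and 247 CPM in Naïve, 309.6, 1108 and 898 in αCD3, 669, 1458 and 1323 in IFNγ and 981, 1196 and 1091 in LPS, for replicates 1 to 3 in this order here and throughout. Every treated library lay above every Naïve library, but replicate 1 of αCD3 and of IFNγ lay far below the other libraries of its group. Its log2 fold change against Naïve was 2.30 ± 0.43, adjusted p = 0.0063 for IFNγ (4.93-fold), 1.73 ± 0.42, adjusted p = 0.00864 for αCD3 (3.31-fold) and 2.22 ± 0.42, adjusted p = 0.00168 for LPS (4.67-fold). Trim30d, its neighbour in the cluster, was at 39.9, 68.3 and 62.1 CPM in Naïve, 83.3, 327 and 276 in αCD3, 163, 429 and 374 in IFNγ and 313, 384 and 348 in LPS. The same pair of libraries was low. The log2 fold changes of Trim30d were 2.51 ± 0.49, adjusted p = 0.00833 for IFNγ, 2.01 ± 0.48, adjusted p = 0.0084 for αCD3 and 2.62 ± 0.49, adjusted p = 0.00154 for LPS, which is 5.68-, 4.02- and 6.15-fold. Neither gene was called between any pair of stimuli, and the range of their libraries overlapped there. Of the 31-base words of the annotated transcripts, 88.3% were found in no other gene for Trim30a and 88.1% for Trim30d, which shared most of the remainder with each other.

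Trim30b, a further member of the same subfamily, was at 28.2, 27.1 and 26.9 CPM in Naïve, 43.6, 89.6 and 75.3 in αCD3, 67.5, 108 and 95.9 in IFNγ and 52.3, 54.1 and 48.4 in LPS. Here the 3 LPS libraries lay close together, below all 3 IFNγ libraries. Trim30b rose by 1.72 ± 0.24 under IFNγ, 1.33 ± 0.24 under αCD3 and 0.91 ± 0.24 under LPS on the log2 scale (adjusted p = 0.00154, 0.00162 and 0.0096), and was 1.75-fold higher under IFNγ than under LPS (0.81 ± 0.24, adjusted p = 0.0188). That last call was lost without IFNγ replicate 2 or 3 or LPS replicate 3 (adjusted p up to 0.0706). Without replicate 1 of all groups, an alternative chosen after seeing the data, the 9 calls of the 3 Trim30 genes against Naïve held, and Trim30a and Trim30d were then also called higher under IFNγ than under αCD3 (adjusted p = 0.00829 and 0.013). Trim30b was then also called higher under IFNγ than under αCD3 (0.0382) and under αCD3 than under LPS (0.000967). The myeloid and erythroid marker lists were lowest in replicate 1 of each group. Of the 10 myeloid genes, 5 were lower under αCD3 than in Naïve, beside 15.7% of all genes. Their part in the levels of the Trim30 genes was not tested.

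The remaining 5 genes of the cluster are the mouse relatives of TRIM5 and TRIM34, which in primates include the best-known restriction factor against retroviruses. Trim34a was at 86.5, 93.5 and 88.4 CPM in Naïve, 112, 168 and 159 in αCD3, 208, 263 and 232 in IFNγ and 130.5, 129 and 132 in LPS. The IFNγ libraries lay above all others, and the αCD3 and LPS libraries overlapped with one another but not with Naïve. Trim34a rose by 1.39 ± 0.14 under IFNγ (2.62-fold, adjusted p = 0.000321), by 0.71 ± 0.14 under αCD3 (adjusted p = 0.00222) and by 0.54 ± 0.14 under LPS (adjusted p = 0.007), and the IFNγ level was above that of αCD3 (0.68 ± 0.14, adjusted p = 0.00251) and of LPS (0.84 ± 0.14, adjusted p = 0.000564). Its exons overlap those of Gm47248 on the opposite strand over 609 bases, and whether strand was used in counting is not given in the sources used here. Trim34b, at 2.15, 2.58 and 2.97 CPM in Naïve, 2.43, 1.65 and 2.58 in αCD3, 4.45, 4.07 and 3.41 in IFNγ and 2.15, 1.85 and 3.22 in LPS, was low throughout. It was not called against Naïve under IFNγ (0.64 ± 0.26, adjusted p = 0.146), and was higher under IFNγ than under αCD3 (0.83 ± 0.26, adjusted p = 0.027) and LPS (0.72 ± 0.26, adjusted p = 0.0479). Both of these calls were lost in at least 1 refit, without αCD3 replicate 2 or IFNγ replicate 1 or 2 for the former (adjusted p up to 0.0931), and for the latter without any library other than αCD3 replicate 2 and LPS replicate 3 (up to 0.162). Without replicate 1 of all groups both were lost (adjusted p = 0.1 and 0.238), and the latter also with DESeq2 (0.0554) and without the count filter (0.0716). Trim34a and Trim34b share 48.7% and 69.0% of their words with each other, so that their division of reads is uncertain.

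Trim12c rose under all 3 stimuli and Trim12a under IFNγ and LPS, whereas Trim5, which lies between Trim34a and Trim12a, fell under αCD3 and LPS. Trim12c, known to act with TRAF6 in type I interferon signalling, was at 108, 138 and 135 CPM in Naïve, 162, 245 and 225 in αCD3, 279, 327 and 299 in IFNγ and 256, 248 and 254 in LPS. Treated and Naïve libraries did not overlap. Its log2 fold change was 1.25 ± 0.14, adjusted p = 0.00051 for IFNγ, 0.73 ± 0.14, adjusted p = 0.00241 for αCD3 and 1.00 ± 0.14, adjusted p = 0.000243 for LPS, and IFNγ exceeded αCD3 (0.52 ± 0.14, adjusted p = 0.0143), a call lost without IFNγ replicate 2 (0.055). Trim12a was at 139.7, 141 and 131 CPM in Naïve, 151, 161 and 155 in αCD3, 241, 249 and 218 in IFNγ and 184, 185 and 168 in LPS, with small spreads between replicates. It rose by 0.78 ± 0.07 under IFNγ (adjusted p = 0.000274) and by 0.38 ± 0.07 under LPS (adjusted p = 0.000977), the latter call being lost on library size alone (log2 fold change 0.17, adjusted p = 0.0606), while its value for αCD3 was 0.18 ± 0.07, adjusted p = 0.0582, or adjusted p = 0.00682 with the replicate number as a block, which also called αCD3 below LPS (adjusted p = 0.00606). The IFNγ level of Trim12a exceeded that of αCD3 (0.60 ± 0.07, adjusted p = 6.81e-05) and LPS (0.40 ± 0.07, adjusted p = 0.000827). Trim5 was at 42.5, 38.7 and 41.8 CPM in Naïve, 34.7, 17.8 and 21.7 in αCD3, 44.8, 28 and 27.3 in IFNγ and 22.6, 19.4 and 19.3 in LPS. All LPS libraries lay below all Naïve libraries. It fell by 1.01 ± 0.25 on the log2 scale under LPS (adjusted p = 0.00648) and by 0.71 ± 0.24 under αCD3 (adjusted p = 0.0373), and its value under IFNγ was -0.30 ± 0.24, adjusted p = 0.499. Without replicate 1 of all groups it was called lower under IFNγ too (log2 fold change -0.56, adjusted p = 0.00478). The αCD3 call of Trim5 was lost without any 1 Naïve library, αCD3 replicate 2 or 3 or LPS replicate 2 or 3 (adjusted p up to 0.13), and without the count filter (0.0509). Trim5 was higher under IFNγ than under LPS (0.71 ± 0.25, adjusted p = 0.0414), which was lost in 8 of the 12 refits without 1 library (up to 0.169) and without the count filter (0.0581), and with the replicate block also higher than under αCD3 (adjusted p = 0.0445). Only 47.1% of the words of Trim5 are its own and 37.9% are shared with Trim12c, which itself has 52.3% of its own, against 84.3% in Trim12a. How reads were divided between them was not tested.

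Of the 8 neighbours, 6 rose and none fell under IFNγ, 5 rose and 1 fell under αCD3, and 6 rose and 1 fell under LPS, beside 8.17%, 22.9% and 26.9% of all genes that rose under these stimuli. Without replicate 1 of all groups, 1 neighbour, Trim5, was called lower under IFNγ. The 1 decrease under αCD3 was lost in 7 of the 12 refits without 1 library and without the count filter. Median log2 fold changes of the 8 were 1.32, 0.72 and 0.73. All 8 differed somewhere among the 4 groups, as did 59.9% of all genes. In the plot of fold changes along the cluster, genes that rose lie at both ends and in between, and Trim30a and Trim30d stand highest.

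**Figure D2:**
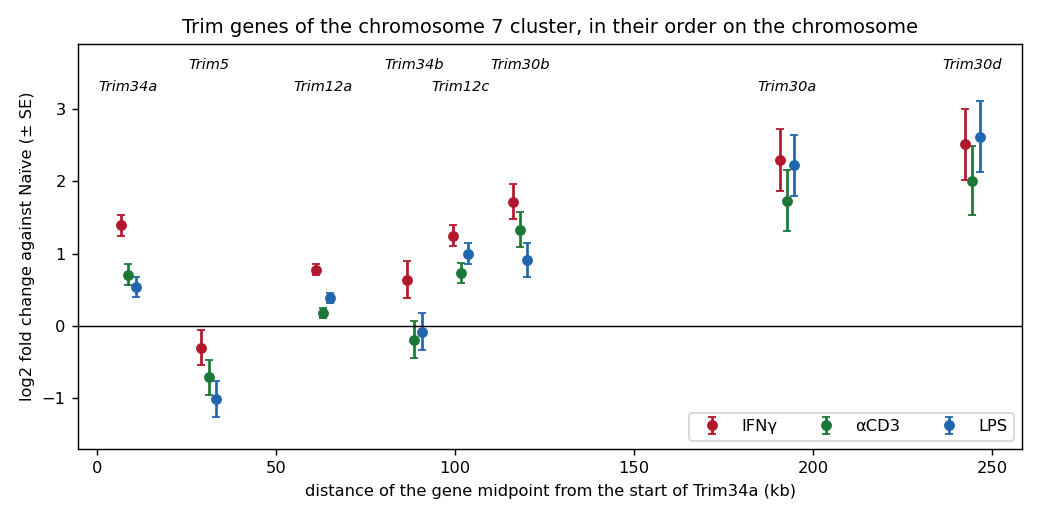
Log2 fold change against Naïve (points, with bars of ± 1 SE) of the 8 Trim genes on chromosome 7 under IFNγ, αCD3 and LPS, placed by the distance of the gene midpoint from the start of Trim34a in kb. Trim5 lies below 0 under all 3 stimuli (down to -1.01 under LPS) while Trim30a and Trim30d lie highest.

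Among the members outside the cluster, the largest increase under IFNγ was that of Trim21, a cytosolic antibody receptor that sends antibody-coated virus to the proteasome. Trim21 was at 41, 44.1 and 47.6 CPM in Naïve, 49.3, 89.8 and 79.8 in αCD3, 128, 186 and 185 in IFNγ and 98.4, 140 and 142 in LPS. The IFNγ libraries lay above all αCD3 libraries. No treated library overlapped with Naïve, although αCD3 replicate 1 lay close to Naïve replicate 3. It rose 3.76-fold under IFNγ (1.91 ± 0.23, adjusted p = 0.000848), 2.87-fold under LPS (1.52 ± 0.23, adjusted p = 0.000418) and 1.64-fold under αCD3 (0.72 ± 0.23, adjusted p = 0.0308). The αCD3 level was below that of IFNγ by a log2 difference of 1.19 ± 0.23, adjusted p = 0.0022 and below that of LPS (αCD3 minus LPS -0.80 ± 0.23, adjusted p = 0.0326). The call of αCD3 against Naïve was lost without any 1 Naïve library or αCD3 replicate 2 or 3 (adjusted p up to 0.126), and that against LPS without αCD3 replicate 1 or 3 or LPS replicate 2 or 3 (up to 0.108) and without the count filter (0.0526). With the replicate block IFNγ was called above LPS (adjusted p = 0.0116).

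Trim25 and Trim56 rose under all 3 stimuli too. Trim25, the ligase that activates the RNA sensor RIG-I, was at 157, 172 and 157 CPM in Naïve, 206, 364 and 316 in αCD3, 323, 481 and 445 in IFNγ and 343, 347 and 333 in LPS. No treated library overlapped with Naïve. Its log2 fold change was 1.36 ± 0.19, adjusted p = 0.00153 for IFNγ, 0.86 ± 0.19, adjusted p = 0.00508 for αCD3 and 1.07 ± 0.19, adjusted p = 0.00104 for LPS. No pair of stimuli differed in the test (IFNγ against αCD3 0.50 ± 0.19, adjusted p = 0.0614, or 0.0203 with the replicate block). Trim56, which restricts several RNA viruses, was at 182, 168 and 173 CPM in Naïve, 189.5, 271 and 241 in αCD3, 332, 454 and 395 in IFNγ and 310.4, 290.5 and 311 in LPS. All treated libraries lay above Naïve. It rose by 1.18 ± 0.13 under IFNγ, 0.42 ± 0.13 under αCD3 and 0.80 ± 0.13 under LPS (adjusted p = 0.00049, 0.0268 and 0.000619), and IFNγ exceeded αCD3 (0.75 ± 0.13, adjusted p = 0.00119) and LPS (0.37 ± 0.13, adjusted p = 0.0428). For αCD3 the call was lost without Naïve replicate 2 or 3 or αCD3 replicate 2 or 3 (adjusted p up to 0.118) and on library size alone (0.0609), and for IFNγ against LPS without any 1 library other than αCD3 replicate 1 or 2 or IFNγ replicate 1 (up to 0.164). With the replicate block αCD3 was called below LPS (0.0348).

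Trim14 and Trim26 rose under IFNγ and LPS. Trim14 lacks a RING finger and serves as an adaptor of the mitochondrial antiviral protein MAVS. It was at 41.4, 46.8 and 51 CPM in Naïve, 42.7, 75.8 and 77.2 in αCD3, 71.3, 114 and 109 in IFNγ and 87.9, 88 and 91 in LPS, and αCD3 replicate 1 lay among the Naïve libraries. Its log2 fold change was 1.08 ± 0.23, adjusted p = 0.0115 for IFNγ, 0.94 ± 0.23, adjusted p = 0.00614 for LPS and 0.49 ± 0.23, adjusted p = 0.114 for αCD3, the last with an adjusted p of 0.0424 under the replicate block, which also called αCD3 below IFNγ (0.0109, or 0.0294 with DESeq2) and below LPS (0.0389). The IFNγ call was lost without IFNγ replicate 2 (adjusted p = 0.0522). Exons of Trim14 overlap those of Nans on the opposite strand over 1356 bases. Trim26, located in the major histocompatibility complex on chromosome 17 (chr17:36837134-36859398), was at 157, 139 and 141 CPM in Naïve, 139, 187 and 166 in αCD3, 194, 247 and 238 in IFNγ and 209, 202 and 207 in LPS. The IFNγ and LPS libraries lay above Naïve, and those of αCD3 overlapped with it. It rose by 0.63 ± 0.11 under IFNγ and 0.50 ± 0.11 under LPS (adjusted p = 0.00509 and 0.00449), and its αCD3 value of 0.17 ± 0.11, adjusted p = 0.276 did not pass. The IFNγ level exceeded that of αCD3 (0.47 ± 0.11, adjusted p = 0.00812), and with the replicate block αCD3 was called below LPS (adjusted p = 0.0363).

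**Figure D3:**
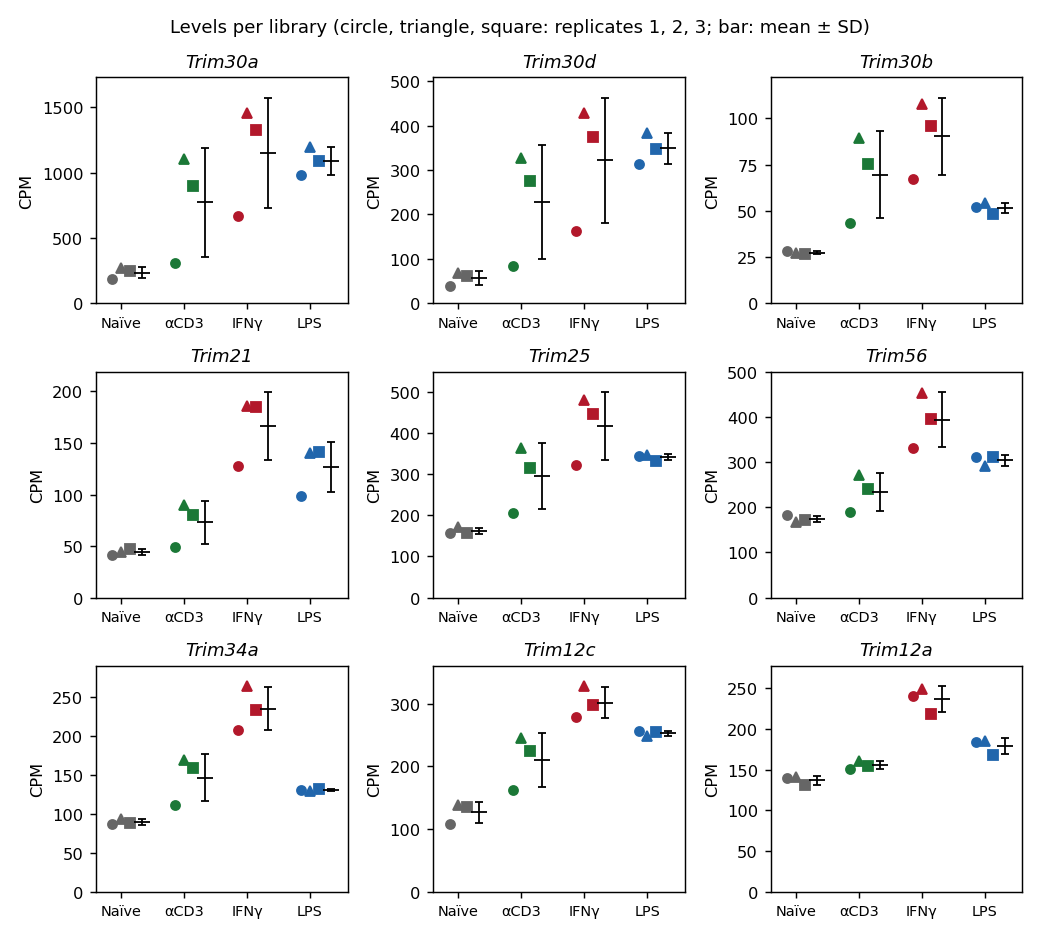
CPM of 9 interferon-linked Trim genes in each library, with circle, triangle and square for replicates 1, 2 and 3 and black bars for mean ± SD of the 3 libraries of a group. Replicate 1 of αCD3 is at 309.6 CPM of Trim30a against 1108 and 898 in replicates 2 and 3, and a similar gap recurs in most panels.

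To ask which of these genes set IFNγ apart from the other stimuli, the treated groups were compared directly. IFNγ exceeded αCD3 in 9 members and was below it in 5, beside 15.8% and 21.4% of all genes. IFNγ exceeded LPS in 12 members and was below it in 4, beside 18.0% and 22.4%. The former count went to 7 without LPS replicate 2 or 3, and to 8 without LPS replicate 1, Naïve replicate 3 or any 1 IFNγ library. αCD3 exceeded LPS in 5 members and was below it in 4, beside 9.64% and 9.76%. The medians of the members were 0.20, 0.14 and -0.11 in these 3 comparisons, and those of all genes 0.03, 0.04 and -0.01. Both comparisons with IFNγ share its libraries. Trim34a, Trim12a, Trim34b, Trim56 and Trim35 were higher under IFNγ than under each other stimulus, and Trim28 and Trim37 were lower. The calls of Trim34b and Trim56 against LPS were lost in most of the refits without 1 library (10 and 9 of 12). The call of Trim35 against LPS was lost without LPS replicate 2 (adjusted p = 0.0542). Trim30a, Trim30d, Trim25 and Trim14 were called in neither comparison, but with the replicate block Trim25 and Trim14 were called above αCD3 (adjusted p = 0.0203 and 0.0109). With the replicate number as a block, 26 members were called for αCD3 against Naïve in place of 17, and 18 for αCD3 against LPS in place of 9. The shares of all genes called in that fit were not counted, so these rises cannot be set beside a general rise. Leaving out αCD3 replicate 2 left 11 calls for αCD3 against Naïve, and leaving out IFNγ replicate 2 left 9 of 14 for IFNγ against αCD3.

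Other genes of the pathways in which these Trim proteins act were read beside them. Of 13 genes around RIG-I, 7 rose under IFNγ, 4 rose and 1 fell under αCD3, and 8 rose under LPS, beside 8.17%, 22.9% and 26.9% of all genes that rose. In all, 38.5% of them were called under αCD3, as were 38.6% of all genes. Their median log2 fold changes were 0.58, 0.09 and 0.41. Ddx58, which codes for RIG-I itself, had 129 ± 14.5 CPM (SD, n = 3) in Naïve, 456 ± 155 under IFNγ, 245 ± 113 under αCD3 and 433 ± 16.6 under LPS. It was called for IFNγ (1.82 ± 0.36, adjusted p = 0.00812) and LPS (1.75 ± 0.36, adjusted p = 0.00238) but not for αCD3 (0.93 ± 0.35, adjusted p = 0.0578, or 0.0357 with the replicate block and 0.0165 with DESeq2). The RNA sensor Ifih1 and the ubiquitin-like modifier Isg15 rose under all 3 stimuli, Ifih1 by 2.84 ± 0.57, 1.84 ± 0.56 and 3.06 ± 0.57 and Isg15 by 3.99 ± 0.79, 3.17 ± 0.76 and 4.38 ± 0.80 under IFNγ, αCD3 and LPS. The αCD3 call of Ifih1 (adjusted p = 0.0241) was lost without any 1 Naïve library or αCD3 replicate 2 or 3 (up to 0.0992) and without the count filter (0.0511). Mavs, the adaptor below RIG-I, was not called against Naïve, with log2 fold changes of -0.11, 0.09 and -0.03, nor was Rnf135, the other ligase known to act on RIG-I (0.63, -0.13 and 0.30), although IFNγ passed with the replicate block (0.0475). Of 4 tested Trim genes under other symbols, 1 rose under IFNγ, 1 under αCD3 and 2 under LPS, beside the same 8.17%, 22.9% and 26.9% of all genes. Pml, the organiser of nuclear bodies, was at 143 ± 18.7 CPM in Naïve and 916 ± 138 under IFNγ (log2 fold change 2.68 ± 0.39, adjusted p = 0.00187), and also rose under αCD3 (1.86 ± 0.38, adjusted p = 0.0034) and LPS (2.15 ± 0.38, adjusted p = 0.0011). Mefv, the pyrin gene, rose under LPS (0.58 ± 0.19, adjusted p = 0.0274) and stood at -0.06 and -0.36 under IFNγ and αCD3. The LPS call of Mefv was lost without Naïve replicate 1 or 2 or LPS replicate 2 or 3 (adjusted p up to 0.0728) and on library size alone (log2 fold change 0.37, adjusted p = 0.117). Mid1, a microtubule-associated ligase (0.21, -0.09 and 0.17 under IFNγ, αCD3 and LPS), and Cmya5, a muscle protein (-0.01, 0.54 and 0.20), were called in no comparison.

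The chromatin members were examined next, and 1 of the 3 was called, under αCD3 and LPS (33.3%, beside 38.6% and 49.3% of all genes). Trim28 (KAP1), the corepressor that KRAB zinc finger proteins use to silence retrotransposons, was at 269, 252 and 255 CPM in Naïve, 369, 406 and 411 in αCD3, 246, 244 and 244 in IFNγ and 434, 439 and 434 in LPS. The IFNγ libraries lay just below all Naïve libraries, and αCD3 and LPS lay far above them. Trim28 rose 1.53-fold under αCD3 (0.61 ± 0.06, adjusted p = 2.45e-05) and 1.68-fold under LPS (0.75 ± 0.06, adjusted p = 4.23e-06). Its IFNγ value was -0.08 ± 0.06, adjusted p = 0.426, or -0.22 with an adjusted p of 0.0211 on library size alone. It was lower under IFNγ than under αCD3 (-0.69 ± 0.06, adjusted p = 1.08e-05) and LPS (-0.83 ± 0.06, adjusted p = 2.29e-06), the smallest adjusted p of the 39 members in each of these comparisons. αCD3 and LPS themselves differed by -0.14 ± 0.06, adjusted p = 0.107, or 0.0481 with the replicate block. Trim24 and Trim33, which read histone tails, were not called in any comparison. Trim24 was at 58.7, 54.3 and 47.7 CPM in Naïve, 57.3, 36.1 and 39.2 in αCD3, 61.5, 38.6 and 40.2 in IFNγ and 52, 37.9 and 42.1 in LPS, and replicate 1 was the highest library of each group. Trim33 was at 104, 88.5 and 91.3 CPM in Naïve, 97.5, 78.3 and 78.2 in αCD3, 105, 85.7 and 82.7 in IFNγ and 94.4, 86.1 and 82.3 in LPS, again with replicate 1 highest in each group. Their values against Naïve were between -0.29 and -0.05, and with the replicate block Trim24 was called for αCD3 and LPS (adjusted p = 0.0297 and 0.0294) and Trim33 for αCD3 (adjusted p = 0.0186), in each case below Naïve. Without replicate 1 of all groups Trim24 was called below Naïve under IFNγ, αCD3 and LPS (adjusted p = 0.0161, 0.00421 and 0.0106). Trim33 was then called below Naïve under αCD3 (0.0172).

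Among 15 partners of Trim28 in heterochromatin, 7 rose and 1 fell under αCD3, 7 rose and 3 fell under LPS, and 2 fell under IFNγ. Of these 15, 53.3% were called under αCD3, 66.7% under LPS and 13.3% under IFNγ, beside 38.6%, 49.3% and 12.4% of all genes. Median log2 fold changes were 0.23, 0.12 and -0.03. The 2 calls under IFNγ became 6 with the replicate block, 5 on library size alone and 0 without any 1 Naïve library, αCD3 replicate 3 or IFNγ replicate 2 or 3. Under αCD3 the 8 calls became 5 on library size alone or without αCD3 replicate 2 and 4 without αCD3 replicate 3. Under LPS the 10 calls became 6 (5 higher, 1 lower) without Naïve replicate 1 or LPS replicate 2, and on library size alone 4 were higher and 4 lower. Setdb1, the histone methyltransferase recruited by Trim28, was at 74.8 ± 0.383 CPM in Naïve, 93 ± 5.20 under αCD3, 103 ± 5.78 under LPS and 68.2 ± 0.927 under IFNγ, and rose under αCD3 (0.31 ± 0.06, adjusted p = 0.00216) and LPS (0.47 ± 0.06, adjusted p = 0.000111). Morc2a, an ATPase of the silencing complex, and the deacetylase Hdac2 rose under both as well (Morc2a 0.47 ± 0.07 and 0.91 ± 0.08, Hdac2 0.61 ± 0.09 and 0.82 ± 0.09). The chromatin remodeller Chd3 moved the other way, falling under IFNγ, αCD3 and LPS (-0.70, -0.59 and -0.95), but its IFNγ and αCD3 calls were lost in 7 of the 12 refits without 1 library (adjusted p up to 0.182 and 0.149) and without the count filter (0.0566 and 0.0543). IFNγ was below αCD3 in 7 of the 15 and below LPS in 8, beside 21.4% and 22.4% of all genes, and above each in 1, Atf7ip. Under αCD3, 6 of the 10 T cell markers were higher than in Naïve and 5 of the 10 B cell markers lower, beside 22.9% and 15.7% of all genes. Under LPS 7 T cell markers were lower, and of the B cell markers 4 were lower and 1 higher. Of all genes, 22.3% were lower and 26.9% higher under LPS. Their part in these changes was not tested.

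Trim37, Trim44 and Trim32 also rose with αCD3. Trim37, a ligase of peroxisomes and centrioles, was at 23.8, 26.9 and 29.4 CPM in Naïve, 35.8, 39.1 and 37.9 in αCD3, 22.1, 23.8 and 21.7 in IFNγ and 48.4, 58.8 and 49.5 in LPS. LPS lay above αCD3 and αCD3 above Naïve with no overlap. Trim37 rose by 0.50 ± 0.10 under αCD3 and by 0.97 ± 0.10 under LPS (adjusted p = 0.00259 and 2.34e-05), and αCD3 was below LPS (-0.48 ± 0.10, adjusted p = 0.00657). Its IFNγ value was -0.24 ± 0.10, adjusted p = 0.156 against Naïve, or -0.38 with an adjusted p of 0.0198 on library size alone. IFNγ lay below αCD3 (IFNγ minus αCD3 -0.74 ± 0.10, adjusted p = 0.000224), and LPS exceeded IFNγ 2.32-fold (IFNγ minus LPS -1.21 ± 0.10, adjusted p = 6.40e-06). Trim44, which lacks a RING finger and carries a ubiquitin-protease-like zinc finger, was at 115, 111 and 109 CPM in Naïve, 141, 149 and 140.4 in αCD3, 134, 132 and 135 in IFNγ and 158, 179 and 154 in LPS. No treated library overlapped with Naïve. It was called higher under all 3 stimuli, by 0.25 ± 0.06 for IFNγ, 0.36 ± 0.06 for αCD3 and 0.55 ± 0.06 for LPS. The IFNγ call of Trim44 (adjusted p = 0.0265) was lost without Naïve replicate 2 or 3 or any 1 IFNγ library (up to 0.1), and on library size alone its value was 0.11 (0.218). It was lost without the count filter too (0.0745). IFNγ lay below LPS (-0.29 ± 0.06, adjusted p = 0.00395). With the replicate block αCD3 was called below LPS (0.0203).

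Trim32, a ligase known from muscle, was higher under αCD3 than in the other groups. It was at 9.60, 8.37 and 12.3 CPM in Naïve, 16.7, 18.3 and 18.1 in αCD3, 11.2, 9.11 and 9.84 in IFNγ and 10.8, 10.2 and 9.09 in LPS. The 3 αCD3 libraries lay above the other 9. It rose by 0.81 ± 0.15, adjusted p = 0.00153 against Naïve and exceeded IFNγ (IFNγ minus αCD3 -0.81 ± 0.15, adjusted p = 0.00141) and LPS (αCD3 minus LPS 0.82 ± 0.15, adjusted p = 0.00335), while both IFNγ and LPS were at -0.01 ± 0.15 against Naïve.

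LPS lowered Trim7, Trim8 and Trim59, below their levels under IFNγ and αCD3. Trim7, a ligase that binds glycogenin, had the largest decrease among the 39 members. It was at 39.8, 30.9 and 35.1 CPM in Naïve, 28.9, 16.2 and 19.3 in αCD3, 31, 19.7 and 21.5 in IFNγ and 9.10, 4.96 and 6.35 in LPS. All LPS libraries lay below the other 9. The level fell 5.23-fold against Naïve (-2.39 ± 0.28, adjusted p = 6.61e-05), and was also below IFNγ (IFNγ minus LPS 1.84 ± 0.28, adjusted p = 0.000423) and αCD3 (αCD3 minus LPS 1.68 ± 0.28, adjusted p = 0.00213). The decrease under αCD3 was smaller (-0.70 ± 0.25, adjusted p = 0.0466) and was lost without any 1 Naïve library, αCD3 replicate 2 or 3, IFNγ replicate 2 or 3 or LPS replicate 3 (adjusted p up to 0.161) and without the count filter (0.0593), and under IFNγ the value was -0.55 ± 0.25, adjusted p = 0.204, or 0.00215 with the replicate block. Exons of Trim7 overlap those of Gm16170 on the opposite strand over 491 bases. The ISRE letters in 1 of its promoters stand beside a gene that rose under no stimulus, as do those of Trim5, Trim34b and Trim2.

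Trim8, a regulator of NF-κB and cytokine signalling, was at 113, 105 and 99.7 CPM in Naïve, 115, 113 and 121 in αCD3, 91, 83.1 and 85.8 in IFNγ and 68.4, 44.3 and 47.8 in LPS. Its LPS libraries were the lowest 3, and its IFNγ libraries lay between those and Naïve. It fell by 0.99 ± 0.13 under LPS (adjusted p = 0.000162) and lay lower under LPS than under αCD3 (αCD3 minus LPS 1.12 ± 0.13, adjusted p = 0.000287) and IFNγ (IFNγ minus LPS 0.70 ± 0.13, adjusted p = 0.00179). Its IFNγ level was below that of αCD3 (-0.42 ± 0.13, adjusted p = 0.0268), a call lost without αCD3 replicate 2 or 3 or IFNγ replicate 2 or 3 (up to 0.0826). Trim59, which has a transmembrane segment, was at 50.5, 43.3 and 40.1 CPM in Naïve, 74.2, 58.3 and 49.2 in αCD3, 80, 59.9 and 58 in IFNγ and 34.5, 27.5 and 30 in LPS. In this gene replicate 1 was the highest library of every group. It was lower under LPS than in Naïve (-0.54 ± 0.17, adjusted p = 0.0227), than under IFNγ (IFNγ minus LPS 1.11 ± 0.17, adjusted p = 0.000474) and than under αCD3 (αCD3 minus LPS 0.99 ± 0.17, adjusted p = 0.0028). Above Naïve, IFNγ stood at 0.56 ± 0.17, adjusted p = 0.0537 and αCD3 at 0.44 ± 0.17, adjusted p = 0.0577, and with the replicate block both were called (0.000487 and 0.000687). The call of LPS against Naïve was lost without Naïve replicate 1 or LPS replicate 2 or 3 (adjusted p up to 0.0857).

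**Figure D4:**
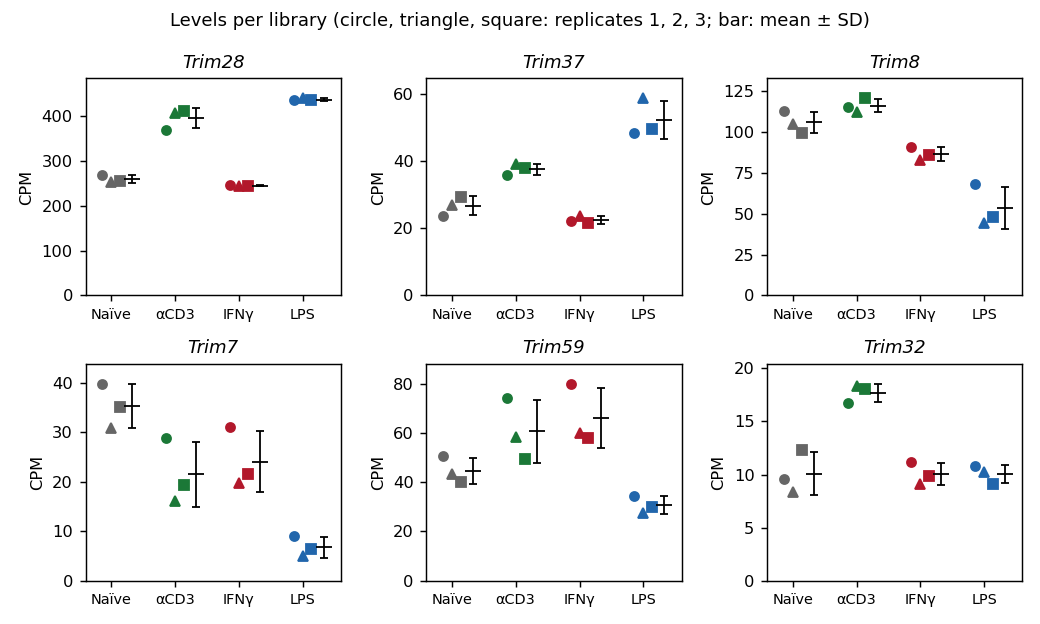
CPM of Trim28, Trim37, Trim8, Trim7, Trim59 and Trim32 in each library, with symbols for replicates 1, 2 and 3 and black bars for mean ± SD of 3 libraries. Trim28 lies at 244 to 246 CPM in IFNγ and 434 to 439 in LPS, and Trim7 falls to 4.96 to 9.10 CPM in LPS.

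Of the other named members, 4 changed by less or at lower levels. Trim27, a nuclear ligase first known as a partner in Ret fusions, was at 20.7, 23 and 22.3 CPM in Naïve, 20.4, 13.2 and 18.5 in αCD3, 12.9, 15.1 and 16.9 in IFNγ and 26.6, 27.7 and 24.7 in LPS, and IFNγ lay below Naïve and LPS above it without overlap. It fell by 0.56 ± 0.15 under IFNγ (adjusted p = 0.035), a call lost without any 1 Naïve library, αCD3 replicate 3 or IFNγ replicate 1 or 2 (up to 0.108), and was lower under IFNγ than under LPS (-0.82 ± 0.15, adjusted p = 0.00148). αCD3 lay below LPS too (-0.59 ± 0.15, adjusted p = 0.0189), except without LPS replicate 2 (0.0694). Trim35, a SPRY member studied in blood cells, was at 73.3, 68.3 and 70.8 CPM in Naïve, 60.5, 54.1 and 56.9 in αCD3, 75.4, 65.5 and 69.4 in IFNγ and 61.3, 54 and 58.3 in LPS. Its αCD3 and LPS libraries lay below all Naïve libraries. It was lower under αCD3 and LPS than in Naïve (-0.31 ± 0.07, adjusted p = 0.0078 and -0.29 ± 0.07, adjusted p = 0.0078) and stood at -0.01 under IFNγ, whose level exceeded that of αCD3 (0.29 ± 0.07, adjusted p = 0.00978) and LPS (0.28 ± 0.07, adjusted p = 0.0124). Trim11, a ligase studied in neurons, was at 91.1, 80.7 and 76 CPM in Naïve, 81.8, 72.6 and 64.3 in αCD3, 88.2, 75.7 and 71.7 in IFNγ and 64.1, 59.8 and 53.9 in LPS. The LPS libraries lay below Naïve. It fell by 0.48 ± 0.11 under LPS (adjusted p = 0.00534) and was higher under IFNγ than under LPS (0.41 ± 0.11, adjusted p = 0.0153), the latter being lost without IFNγ replicate 1 or LPS replicate 3 (up to 0.0649). With the replicate block it was also called lower under αCD3 than in Naïve (log2 fold change -0.18, adjusted p = 0.00554) and higher under αCD3 than under LPS (0.000717).

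Trim46, a microtubule-bundling protein of neurons, was at 3.95, 3.99 and 3.99 CPM in Naïve, 2.19, 1.24 and 0.967 in αCD3, 2.35, 3.18 and 2.73 in IFNγ and 2.35, 5.30 and 7.96 in LPS. Its αCD3 libraries lay below the other 9, and its LPS libraries spread most widely. It was lower under αCD3 than in Naïve (-1.38 ± 0.40, adjusted p = 0.0198) and under αCD3 than under LPS (-1.78 ± 0.41, adjusted p = 0.0115). The former call was lost without αCD3 replicate 2 or 3 (adjusted p up to 0.0728) and the latter without LPS replicate 3 (0.0515). Exons of Trim46 overlap those of Krtcap2 on the opposite strand over 239 bases.

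The 13 members that remain are Trim2, Trim3, Trim13, Trim17, Trim23, Trim36, Trim39, Trim41, Trim45, Trim47, Trim62, Trim65 and Trim68, with group means from 0.793 to 88.1 CPM. None of them rose against Naïve under any stimulus, although without replicate 1 of all groups Trim65 was called higher under αCD3 (log2 fold change 0.31, adjusted p = 0.0233). Trim41 fell under IFNγ (-0.37 ± 0.09, adjusted p = 0.0188), Trim62 under αCD3 (-0.78 ± 0.21, adjusted p = 0.0157), and Trim3, an NHL protein of neurons, and Trim47 under LPS (-0.65 ± 0.17, adjusted p = 0.00922 and -1.27 ± 0.36, adjusted p = 0.0136). Leaving out single libraries ended the calls of Trim41 (without Naïve replicate 1 or IFNγ replicate 2 or 3, adjusted p up to 0.0847), Trim62 (without Naïve replicate 1 or αCD3 replicate 2 or 3, up to 0.0589) and Trim47 (without Naïve replicate 2, 0.0555). The other values of these 13 genes against Naïve ran from -0.82 to 0.63 for IFNγ, -0.76 to 0.19 for αCD3 and -0.59 to 0.08 for LPS, and some of these were called with the replicate block. In that fit Trim39 was lower than Naïve under IFNγ, αCD3 and LPS (log2 fold changes -0.14, -0.17 and -0.35, adjusted p = 0.0305, 0.00581 and 4.61e-05), Trim3 under IFNγ and αCD3 (0.0294 and 0.00678) and Trim41 under αCD3 and LPS (0.0281 and 0.00619). Between stimuli, Trim65 was lower under IFNγ than under αCD3 (-0.33 ± 0.11, adjusted p = 0.0294) and higher under αCD3 than under LPS (0.33 ± 0.11, adjusted p = 0.0489). Trim23 was higher under IFNγ than under αCD3 (0.37 ± 0.13, adjusted p = 0.0412) and Trim47 under IFNγ than under LPS (1.04 ± 0.37, adjusted p = 0.0424). In the 12 refits without 1 library these 4 calls were lost 3, 9, 6 and 8 times (adjusted p up to 0.108, 0.175, 0.159 and 0.115). That of Trim23 was lost also on library size alone (0.0683) and without the count filter (0.0688), and that of Trim47 with DESeq2 (0.0625), without the count filter (0.0579) and without replicate 1 of all groups (0.12). The block added calls of Trim39 above LPS under IFNγ and αCD3 (0.00203 and 0.00803) and of Trim41 lower under IFNγ than under αCD3 and LPS (0.00401 and 0.0158). It also added Trim62 and Trim17 higher under IFNγ than under αCD3 (0.0361 and 0.0393) and Trim23 lower under αCD3 than under LPS (0.0295). Trim47 and Trim65 lie next to each other on chromosome 11 and share 225 exon bases on the same strand. Trim68, the neighbour of Trim21 on chromosome 7, was at 10.1, 4.20 and 0 CPM in the LPS libraries and was called nowhere.

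By domain, 22 of the 39 members were listed with a RING finger and a SPRY domain, without protein sequences to check the listing. A further 2 were listed in a separate class that also holds a SPRY domain, and are not counted here. Of the 22, 9 were higher and 2 lower under IFNγ, 7 and 4 under αCD3, and 9 and 5 under LPS. In all 50% of the 22 were called under IFNγ, 50% under αCD3 and 63.6% under LPS, beside 12.4%, 38.6% and 49.3% of all genes. The 11 calls under αCD3 became 7 (6 higher, 1 lower) without Naïve replicate 1 or αCD3 replicate 2 or 3, and the 2 decreases under IFNγ became 0 without Naïve replicate 1 or IFNγ replicate 2 and 4 with the replicate block. On library size alone 8 were higher and 8 lower under LPS. The 3 NHL members had 1 increase, that of Trim32 under αCD3, and 1 decrease, that of Trim3 under LPS. Each is 33.3% of the class, beside 38.6% and 49.3% of all genes called under αCD3 and LPS. E2 enzymes, with which the RING fingers work, rose in 2 of 12 cases under IFNγ, 5 under αCD3 and 9 under LPS, with none lower and medians of 0.14, 0.28 and 0.52. Of all genes, 8.17%, 22.9% and 26.9% rose. With the replicate block 5 of the 12 were higher and 1 lower under IFNγ. On library size alone 1 was higher and 1 lower under IFNγ and 7 higher and 2 lower under LPS, and the 5 increases under αCD3 became 3 without Naïve replicate 1 or αCD3 replicate 2 or 3. Ube2l6, the E2 enzyme of ISG15 conjugation, was the largest, at 27.8 ± 6.35 CPM in Naïve, 154 ± 56.8 under IFNγ, 73.7 ± 38.8 under αCD3 and 103 ± 34.9 under LPS (log2 fold changes 2.48 ± 0.47, adjusted p = 0.00691, 1.40 ± 0.46, adjusted p = 0.0334 and 1.90 ± 0.46, adjusted p = 0.00648). Its αCD3 call was lost without any 1 Naïve library or αCD3 replicate 2 or 3 (adjusted p up to 0.139) and without the count filter (0.069). Ube2d2a, a general partner of RING ligases, was not called, at 0.01, 0.00 and -0.02, except under LPS on library size alone (-0.23, adjusted p = 0.00501).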

How the data were processed

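RNA of 12 libraries, 3 for each of 4 groups placed by the labels, was pseudo-aligned by the authors with kallisto to mm10, and they deposited estimated counts per gene symbol, not scaled to depth. The kallisto version, its annotation and the use of strand are not given in the sources used here, and per the labels DESeq2 1.24.0 was used for tests. Here counts were rounded and fitted in 1 model of the 12 libraries with edgeR 4.0.16 in R 4.3.3 (TMM, filterByExpr, robust quasi-likelihood F-test, group as the only term, 6 contrasts), with Benjamini-Hochberg adjustment over 12122 genes. SE is the log2 fold change divided by the square root of F. CPM printed per library use TMM-scaled library sizes, and means are given with SD. With 3 against 3 libraries an exact permutation test cannot go below 0.1, so none is given. Members and gene lists were chosen with earlier results of these data known. Values per library are given for 16 members of interferon-linked and chromatin lists and the 10 others with the smallest p for any difference, and the remaining 13 by counts and ranges. Same-numbered libraries deviated together (all 18 correlations above 0.1, 0.117 to 0.401, median 0.188), so that a fit with the replicate number as a block is given where it changes a call. Positions and exons are from GENCODE M21 (GRCm38), 31-base words from its transcripts, and promoters from RefSeq, in which a further motif was also searched that is not reported here. The script was tested on simulated counts first. Alternatives were DESeq2 1.42.0, library size in place of TMM, no count filter, the block, each library left out in turn and, added later, replicate 1 of all groups left out.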

Additional observations from a re-analysis of the deposited data

How the results depend on the processing

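Of the 92 calls of single members over the 6 comparisons, none reversed in any setting. All 92 held with the replicate block, 90 with DESeq2, 88 on library size alone, 84 without the count filter and 89 without replicate 1 of every group, and these settings added 34, 7, 8, 0 and 43 calls. In the 12 refits that left out 1 library, 64 calls held throughout and 28 were lost at least once. Members called for αCD3 against Naïve numbered 17, but 26 with the replicate block (15 higher, 11 lower), 28 without replicate 1 (18 and 10) and 11 without αCD3 replicate 2 (10 and 1). For αCD3 against LPS the 9 calls became 18 with the block (7 and 11) and 16 without replicate 1 (9 and 7), and for IFNγ against αCD3 the 14 became 9 without IFNγ replicate 2 (6 and 3). The shares of all genes called in these settings were not counted, and the cause was not tested. With 1 library left out, counts ranged from 10 to 15 for IFNγ against Naïve, 11 to 20 for αCD3 against Naïve, 21 to 24 for LPS against Naïve, 9 to 16 for IFNγ against αCD3, 11 to 16 for IFNγ against LPS, 6 to 11 for αCD3 against LPS and 23 to 27 for any difference. A group with 2 libraries left was tested with the spread of all groups. With library size in place of TMM the median of all genes against Naïve went to -0.16 (IFNγ), -0.13 (αCD3) and -0.22 (LPS), where TMM had left -0.02, -0.02 and -0.01, so small changes there are relative to that shift. Members of a few CPM, such as Trim17, Trim34b and Trim46, rest on the fewest counts.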

Other observations

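Of the rows below 1 CPM, 5 passed the count filter and were tested (Trim6, Trim9, Trim10, Trim16 and Trim67). The 1 call among them was Trim9, a SPRY protein of neurons, which was lower under IFNγ than under LPS (log2 fold change -3.29 ± 0.91, adjusted p = 0.014). It was at 3.68, 0.841 and 0.965 CPM in the LPS libraries and 0.162, 0.354 and 0 in those of IFNγ. Without LPS replicate 1 the log2 fold change was -2.31 with an adjusted p of 0.052. This gene was named after its values were seen.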
